A study of Mus musculus with 6 samples.

Results

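The miR-23/27/24 clusters are a pair of short stretches of the mouse genome, called a and b, from which microRNAs (miRNAs) of the miR-23, miR-27 and miR-24 families are made. The 9 rows of the deposited table described here were chosen by name from its 620 rows. They are the 3p arms miR-23a-3p, miR-23b-3p, miR-27a-3p, miR-27b-3p and miR-24-3p, the 5p arms miR-23a-5p, miR-27a-5p and miR-24-2-5p, and miR-3074-5p, which is annotated on the strand opposite miR-24. All 9 were in the table, and all 9 passed the filter on low counts. The RNA came from extracellular vesicles of wild-type mouse peripheral blood mononuclear cells (PBMCs), which are membrane-bound particles released by the lymphocytes and monocytes of blood. There were 3 libraries of the untreated group (control) and 3 of a group with IS stimulation, where the meaning of IS is not given, and both groups carry the same genotype label. The series title concerns a vesicle miRNA, miR-744-5p, in the heart disease of uremia, and names none of the members. No dose, time, age or strain is given in the labels. Separate animals or cultures are not stated for the replicates. The p-values therefore measure only the spread among these 6 libraries, and that spread may be technical.

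Each cluster is transcribed as 1 long precursor that is processed into hairpins, and each hairpin gives a 5p and a 3p strand, of which 1, the guide, is usually kept and the other, the passenger, is usually degraded. A miRNA finds its target messages mainly through its seed, the bases from position 2 to position 8. Cluster a is known in mice as a target of the blood cell transcription factor PU.1 in myeloid cells. In mouse work miR-23 and miR-27 have been tied to the growth of new vessels, miR-27 and miR-24 to restraint of helper T cell responses, and miR-24 to survival of heart muscle cells.

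Cluster a lies at chr8:84208518-84208921 and cluster b at chr13:63300484-63301283 (GRCm38.p6, RefSeq), with Mir23, Mir27 and Mir24 in this order on the plus strand of both. They span 404 and 800 bases. In the GENCODE annotation of GRCm38, Mir23a and Mir27a overlap no other annotated gene, and Mir24-2 touches 1 exon of the long noncoding RNA gene Gm26532. Cluster b lies inside the protein-coding gene 2010111I01Rik on the plus strand, and 1 transcript of the protein-coding gene Fancc on the minus strand, that of Mir3074-1, spans it with no exon there. Mir23b falls in an intron of all 9 of its transcripts that span it, Mir27b overlaps an exon in 1 of 9, and Mir24-1 overlaps an exon in 4 of 11. The Mir3074 hairpins lie on the minus strand over both Mir24 hairpins. The genome build used by the authors is not given in the sources used here, so these positions are those of the reference.

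**Figure D1:**
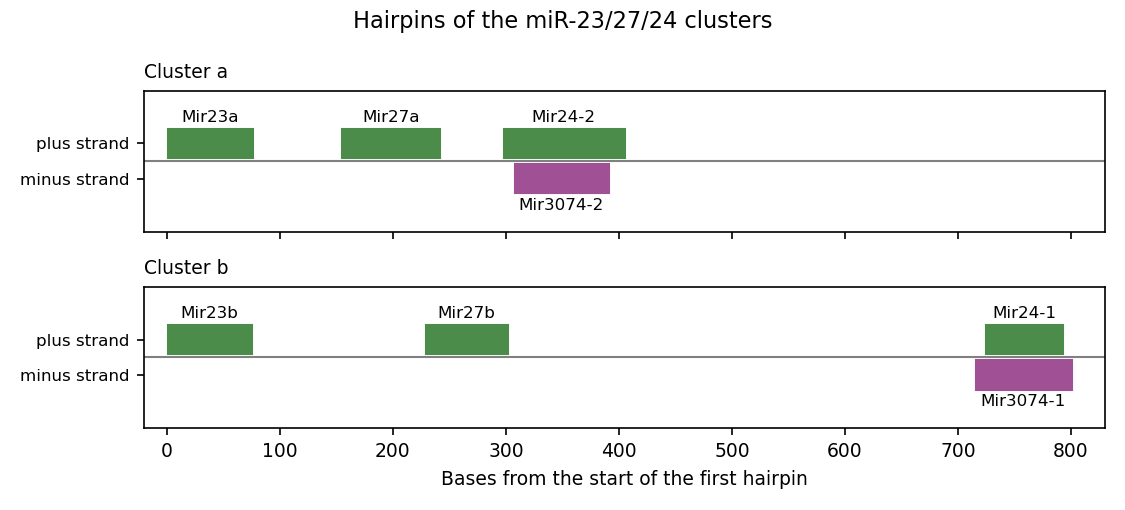
Hairpins of clusters a and b drawn to scale, in bases from the start of the first hairpin of each cluster, with plus-strand hairpins above the line and minus-strand hairpins under it. The hairpins span 404 bases in cluster a and 800 in cluster b, and each Mir3074 hairpin sits over a Mir24 hairpin.

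Of the 9 members, 8 had a mature sequence in the RefSeq table, and miR-23b-3p is named only. The mature sequences are shown because how well the clusters can be told apart rests on them. The seed is in capitals, and positions are counted from 1 at the 5′ end.
miR-23a-3p: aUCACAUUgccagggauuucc
miR-27a-3p: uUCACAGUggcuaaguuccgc
miR-27b-3p: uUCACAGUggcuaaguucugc
miR-24-3p: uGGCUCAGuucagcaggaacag
miR-3074-5p: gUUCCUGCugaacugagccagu
miR-23a-5p: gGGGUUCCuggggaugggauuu
miR-27a-5p: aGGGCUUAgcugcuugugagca
miR-24-2-5p: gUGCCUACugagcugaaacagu

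The guides of miR-27a and miR-27b have the same seed and differ at 1 of 21 bases, C19U, near the 3′ end. A read that ends before that base matches both. The seeds of miR-23a-3p and miR-27a-3p differ at 1 position, U7G. miR-24-3p is encoded in both clusters with the same letters, so its reads cannot be assigned to either. Over 20 bases miR-24-3p and miR-3074-5p are exact reverse complements of each other at the same place in the genome.

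The Mir23a and Mir23b hairpins are shown to place the miR-23 guides, with the shared seed in capitals.
Mir23a hairpin: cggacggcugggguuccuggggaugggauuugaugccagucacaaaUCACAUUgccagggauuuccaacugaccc
Mir23b hairpin: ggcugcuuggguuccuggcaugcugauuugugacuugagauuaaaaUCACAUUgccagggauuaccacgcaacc

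The stretch of the Mir23b hairpin that best matches miR-23a-3p differs from it at 1 of its 21 bases, U19A. Over these 21 bases, the letter that tells a from b is thus at position 19 in both families. Where the mature miR-23b-3p ends is not given, and bases beyond that stretch were not compared. How the authors' counting shared out reads that match both is not given in the sources used here, so the split between a and b is uncertain to that extent.

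The shallowest library held 125731 counts and the deepest 435468. Levels are given in CPM, the counts per 1000000 counts of a library, and a single count equals 2.30 CPM in the deepest library and 7.95 CPM in the shallowest. Rows that repeat a miRNA under another name were kept in these totals, so they lower the CPM and shares of the rest. For example, miR-122-5p, with a mean of 60646 CPM in control and 57314 CPM in IS, is listed again with the same values. Leukocyte marker miRNAs, 6 of 6 of which were in the table, took 0.60 to 2.22% of the counts in control and 0.771 to 2.67% in IS, with miR-155-5p at 0 in IS 1. Red cell markers (4 of 4, none at 0) took 9.34 to 18.7% and 12.1 to 22.3%, and liver markers (3 of 3, none at 0) took 2.44 to 11.3% and 3.29 to 10.8%. Vesicles labelled as from PBMCs thus held leukocyte miRNAs together with larger shares of red cell and liver miRNAs. Control 3 and IS 2, the deepest library of each group, stood apart with the highest summed leukocyte and red cell shares. The libraries most alike in their counts over all miRNAs came from different groups, by the chi-square per degree of freedom. That value is lower for more similar libraries, but it also rises with depth, which was not adjusted for. It was 23.5 for control 1 with IS 1, 41.9 for control 2 with IS 3 and 65.3 for control 3 with IS 2, and higher in all other pairs. The group tests, and the tests of ratios within libraries and of correlations given below, treat the 6 libraries as independent.

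Without miR-3074-5p, the members took from 0.582% (IS 1) to 0.918% (control 3) of a library's counts. In order of mean level, miR-27b-3p was 39th of 620 rows, miR-24-3p 47th, miR-23a-3p 49th, miR-27a-3p 61st and miR-23b-3p 67th. The 5p arms came lower, with miR-24-2-5p 93rd, miR-27a-5p 150th and miR-23a-5p 173rd. Mature miRNAs are of nearly equal length (21 or 22 bases for the 8 shown), so CPM is used here as a level per molecule. Differences in how well each sequence is captured in a library were not tested.

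The miR-23 guides are known for roles in vessels and in muscle growth. miR-23a-3p stood at 1017, 1216 and 1970.3 CPM in control 1 to 3 and at 1260.0, 1922 and 1399.8 CPM in IS 1 to 3 (275, 286, 858, 188, 610 and 176 counts). miR-23b-3p, its counterpart in cluster b, stood at 625, 485 and 1068 CPM in control and at 617, 1015 and 692 CPM in IS. Control 3 and IS 2 held the highest values of both, and the groups overlapped. The means were 1401 ± 503 and 1527 ± 349 CPM for miR-23a-3p and 726 ± 304 and 774 ± 211 CPM for miR-23b-3p (control and IS, SD, n = 3 per group).

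The miR-27 guides, known as brakes on fat cell formation, did not share that order. miR-27b-3p, the most abundant member, stood at 2075, 2517 and 2347 CPM in control and at 1769, 1308 and 2545 CPM in IS. For miR-27a-3p the values were 1239, 846 and 1291 CPM in control and 784, 633 and 1010.1 CPM in IS. Both were lowest in IS 2, where the miR-23 guides were high, and the groups overlapped in both. The means were 2313 ± 223 and 1874 ± 625 CPM for miR-27b-3p and 1125 ± 243 and 809 ± 189.6 CPM for miR-27a-3p (n = 3 per group).

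miR-24-3p, made from both clusters, stood at 1180.0, 2499.6 and 2129 CPM in control and at 952, 961 and 1439.6 CPM in IS. The means were 1936 ± 681 and 1117 ± 279 CPM, and only IS 3 reached into the range of the control libraries, above control 1. The counts of miR-3074-5p were those of miR-24-3p in 4 libraries and lower by 2 counts in control 3 (925 against 927) and by 1 in IS 2 (304 against 305). These rows therefore hold nearly the same reads under both names, and miR-3074-5p is not counted below as a separate measurement.

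**Figure D2:**
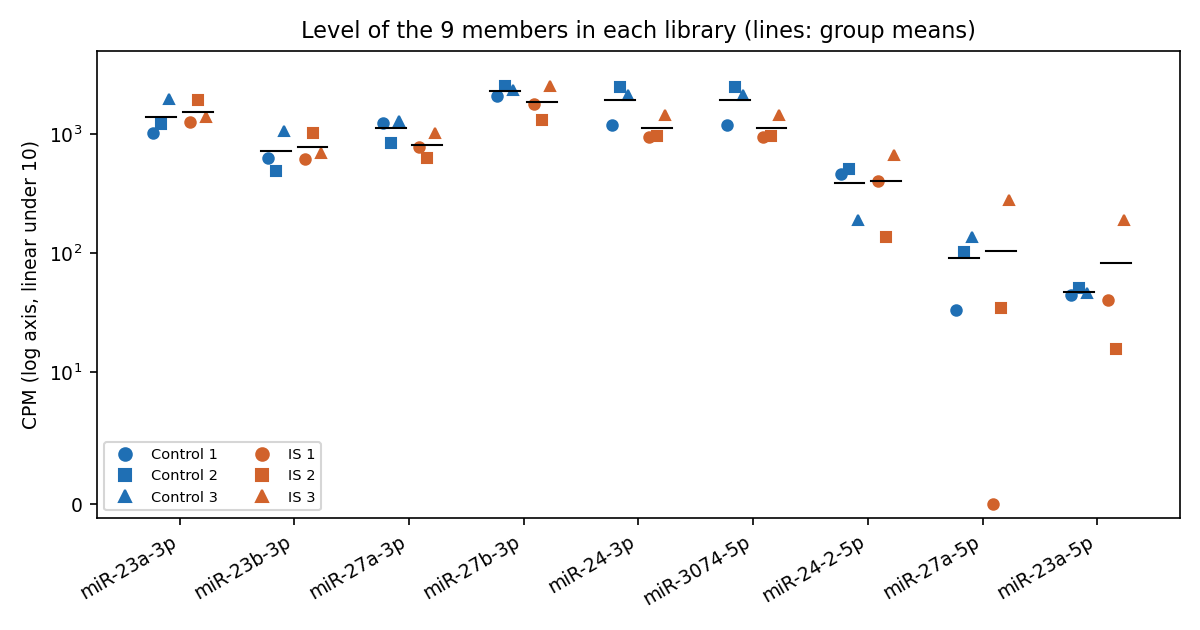
Level of the 9 members in CPM (log axis, linear under 10 CPM) in each library, with circles, squares and triangles for replicates 1, 2 and 3 and a line at each group's mean. The control and IS points overlap for all 9, and the only value of 0 is that of miR-27a-5p in IS 1.

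Comparing IS with control in the deposited counts gave no member past the threshold used here. With edgeR's quasi-likelihood test, Benjamini-Hochberg adjusted over 206 miRNAs, 0 of the 9 members had an adjusted p under 0.05, and 0.00% of all tested miRNAs did. At an unadjusted p under 0.05 there were 0 members, against 3 miRNAs of 206 (1.46%). Among those 3, miR-1a-3p (log2 fold change 1.68) is listed again under another name with the same values. Such repeats were not removed from the 206. The 3 of the 206 miRNAs whose groups did not overlap (1.46%) also held 0 members. Of the 9 members, 4 had a log2 fold change above 0 and 5 below, with a median of -0.029 beside 0.022 over all tested miRNAs, of which 47.1% lay below 0. With miR-3074-5p left out as a repeat, the median of 8 was -0.0036.

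The guides of 1 family had fitted differences of 1 sign in both clusters, which was not tested. How reads that match both were counted is not given, so the a and b rows may not be independent. For miR-24-3p the log2 fold change was -0.76 (SE 0.46, edgeR adjusted p = 0.996, unadjusted p = 0.13), the 9th smallest p of 206, after that of its repeat. It was -0.49 (SE 0.49) for miR-27a-3p and -0.31 (SE 0.45) for miR-27b-3p. For the miR-23 guides it was 0.19 (SE 0.48) in miR-23a-3p and 0.14 (SE 0.53) in miR-23b-3p. The exact two-sided permutation test on log2(CPM + 1) gave p = 0.2 for miR-24-3p and miR-27a-3p, 0.4 for miR-27b-3p, 0.6 for miR-23a-3p and 0.8 for miR-23b-3p, where 0.1 is the smallest p that 3 libraries against 3 allow.

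With the filter and scaling refitted, leaving out control 1, control 2 or IS 2 turned the sign of miR-23a-3p and of miR-23b-3p. With both kept as for all libraries, leaving out IS 2 did so for both, and leaving out control 2 for miR-23b-3p. The sign of miR-27a-3p, miR-27b-3p and miR-24-3p did not turn with any library left out, but the values moved. Refitted, miR-24-3p was -1.28 without control 1 and -1.17 without IS 3. miR-27a-3p was -0.98 without control 2 and -0.87 without IS 3. It was -0.26 without control 1 when the scaling was kept. miR-27b-3p was -0.79 without IS 3 and -0.18 without IS 2, or -0.13 without IS 2 with the scaling kept. Without control 3 and IS 2 together, the log2 fold changes were 0.072 for miR-23a-3p, 0.020 for miR-23b-3p, -0.46 for miR-27a-3p, -0.30 for miR-27b-3p and -0.79 for miR-24-3p, again with 0 past the threshold.

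**Figure D3:**
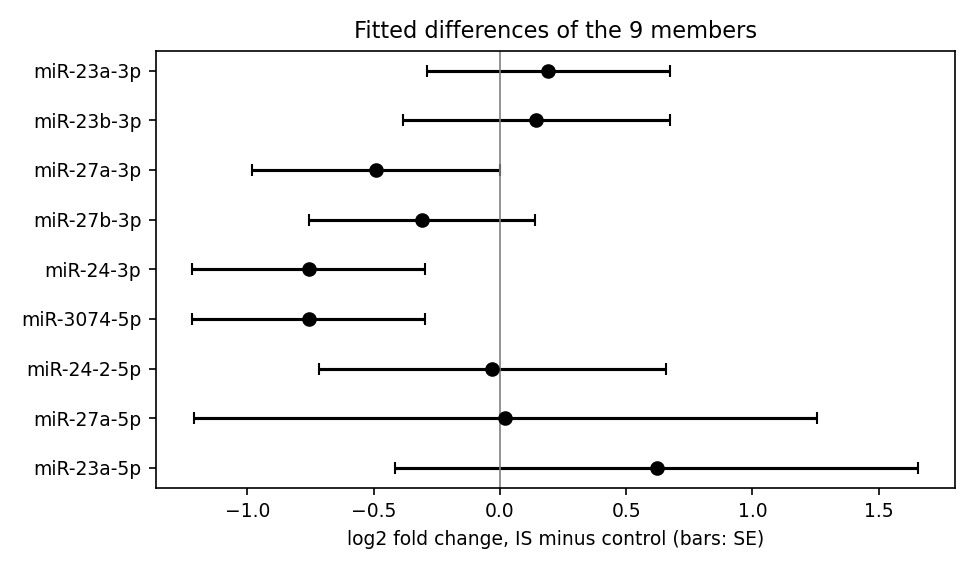
Fitted log2 fold change of each member, IS minus control, with bars of 1 SE on either side. The miR-24-3p and miR-3074-5p values of -0.76 are those of the same reads, and the bars of the 5p arms are the widest.

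Clusters a and b were compared within each library, since both members of a ratio then share depth and scaling. miR-23a-3p exceeded miR-23b-3p in 6 of 6 libraries, while miR-27a-3p lay under miR-27b-3p in 6 of 6. The mean log2 ratio of counts was 0.98 ± 0.21 (SD, n = 6) for miR-23a-3p over miR-23b-3p, a 1.97-fold higher count in a. It was -1.12 ± 0.30 for miR-27a-3p over miR-27b-3p. Each had p = 0.031 in an exact two-sided sign-flip permutation test over the 6 libraries, the smallest that test can give. After Benjamini-Hochberg adjustment over 9 ratios it was 0.047. That adjusted p depends on how many ratios on the list reach the smallest p, and 6 of the 9 did. The ratios between arms, given below, were among those 6. Without the ratios between arms on the list, no adjusted p would be under 0.05. The adjusted p thus holds only for this list, which was chosen with earlier results known. With any library left out the smallest p possible is 0.062, so the call ends by construction, and the log2 ratios stayed between 0.91 and 1.03 and between -1.2 and -1.03.

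In shares of the miR-23 guide counts, miR-23a-3p made up 61.9, 71.5 and 64.9% in the control libraries and 67.1, 65.5 and 66.9% in the IS libraries. Counting error alone gives 95% exact Clopper-Pearson intervals of 57.2 to 66.5% in control 1 and 66.8 to 75.9% in control 2, which do not overlap. miR-27a-3p made up 37.4, 25.2 and 35.5% of the miR-27 guide counts in control and 30.7, 32.6 and 28.4% in IS, with intervals of 34.2 to 40.6% in control 1 and 22.2 to 28.3% in control 2. Control 2 thus held the largest a share of miR-23 and the smallest a share of miR-27. The reads have no molecular identifiers, so these intervals cover counting error only. IS minus control in the log2 ratio was 0.018 for miR-23a-3p over miR-23b-3p (exact two-sided permutation p = 0.9) and -0.12 for miR-27a-3p over miR-27b-3p (p = 0.7), with the other sign without control 1 in both, and also without control 3 or IS 1 in the first.

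Guides made from the same precursor had unequal and variable counts, and differences in capture between their sequences were not tested. miR-23b-3p lay under miR-27b-3p in 6 of 6 libraries, with a mean log2 ratio of -1.50 ± 0.69 (exact sign-flip permutation p = 0.031, adjusted p = 0.047). This adjusted p also holds only for the list of ratios chosen, and it is under 0.05 only with the ratios between arms on it. The count of miR-23b-3p was 0.301, 0.193 and 0.455 times that of miR-27b-3p in control 1 to 3 and 0.348, 0.776 and 0.272 times in IS 1 to 3. It came nearest to miR-27b-3p in IS 2 and next in control 3. In cluster a, miR-23a-3p exceeded miR-27a-3p in 5 of 6 libraries, all but control 1, with a mean log2 ratio of 0.60 ± 0.60 that did not pass (exact sign-flip permutation p = 0.062, adjusted p = 0.070).

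miR-24-3p and miR-23a-3p had nearly equal counts on average, with a mean log2 ratio of 0.00028 ± 0.68 over the 6 libraries. Among the 9 ratios this was the only one whose groups did not overlap. miR-24-3p had 1.16, 2.06 and 1.08 times the count of miR-23a-3p in control 1 to 3, and 0.755, 0.50 and 1.03 times in IS 1 to 3. The highest IS library, IS 3, lay just under the lowest control library, control 3. The mean log2 ratio was 0.45 ± 0.51 in control and -0.45 ± 0.52 in IS, a difference of -0.91 with the smallest p that the exact permutation test allows (0.1) and an adjusted p of 0.9 over 9 ratios. Over all pairs of the 206 tested miRNAs, 3.48% of log2 ratios had groups that did not overlap, and these pairs share miRNAs. Leaving out any 1 library gave differences from -1.16 to -0.62.

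For miR-24-3p over miR-27a-3p the mean log2 ratio was 0.60 ± 0.55, above 0 in 5 of 6 libraries (exact sign-flip permutation p = 0.062, adjusted p = 0.070). Its difference between groups was -0.27, and 0.14 without control 2, where miR-24-3p was 2.95 times miR-27a-3p.

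**Figure D4:**
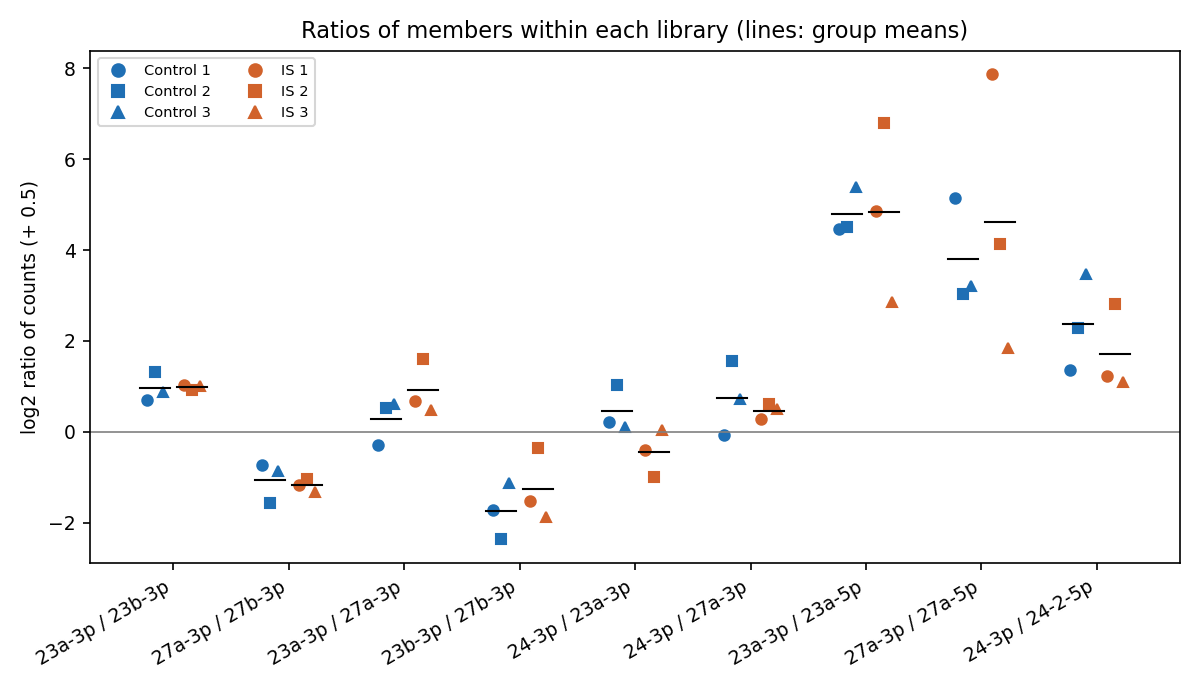
Log2 ratio of the counts of 2 members, each plus 0.5, in each library, with circles, squares and triangles for replicates 1, 2 and 3 and a line at each group's mean. The 6 points lie above 0 for miR-23a-3p over miR-23b-3p and below 0 for miR-27a-3p over miR-27b-3p, and the IS 1 point of miR-27a-3p over miR-27a-5p rests on 0 counts of the 5p arm.

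The 3p arm of Mir23a and of Mir27a had more counts than the 5p arm in 6 of 6 libraries, and miR-24-3p exceeded miR-24-2-5p in 6 of 6. The mean log2 ratio of 3p to 5p counts was 4.81 ± 1.29 for miR-23a, 4.21 ± 2.11 for miR-27a and 2.05 ± 0.97 for miR-24-3p over miR-24-2-5p, each with p = 0.031 in the exact sign-flip permutation test (adjusted p = 0.047). The last is not the ratio of 1 hairpin, since miR-24-3p comes from both clusters, so the arms of Mir24-2 alone were not compared.

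The 5p arms were scarce and spread widely. miR-23a-5p had 12, 12 and 20 counts in control 1 to 3 (44.4, 51.0 and 45.9 CPM) and 6, 5 and 24 in IS 1 to 3 (40.2, 15.8 and 191 CPM). miR-27a-5p had 9, 24 and 60 counts in control (33.3, 102 and 138 CPM) and 0, 11 and 35 in IS (0, 34.7 and 278 CPM). IS 3, the shallowest library, was the highest for both in CPM, and the log2 fold change of miR-23a-5p was 0.62 (SE 1.04) with all libraries and -0.59 without IS 3 with the scaling kept, or -1.02 with it refitted. For miR-27a-5p it was 0.022 (SE 1.23), or -2.05 and -2.26 without IS 3.

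As a share of its hairpin's counts, miR-23a-5p ran from 0.813% in IS 2 (95% exact interval 0.264 to 1.89%) to 12% in IS 3 (7.84 to 17.3%). miR-27a-5p ran from 0 of 117 counts in IS 1, which allows a share of up to 2.56% by the limit of 3 counts and up to 3.10% by the exact interval, to 21.6% in IS 3 (15.5 to 28.7%). In IS 3 both 5p arms thus took the largest share of their hairpin, and the intervals exclude the share in the lowest library.

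miR-24-2-5p was the most abundant 5p arm, at 459, 510.1 and 191 CPM in control 1 to 3 and at 402, 136 and 668 CPM in IS 1 to 3. It was lowest in IS 2 and control 3, the reverse of the miR-23 guides. Its counts were also listed under miR-3074-2-3p on the other strand, equal in 5 libraries and 1 count apart in control 3. Set against miR-24-3p, it made up 28.0, 16.9 and 8.22% of the counts of both in control and 29.7, 12.4 and 31.7% in IS, again lowest in control 3 and IS 2. Its log2 fold change was -0.029 (SE 0.69), 0.34 without IS 2, and it turned to 0.015 under RLE scaling, 0.051 with library totals alone, 0.028 with no filter on low counts and 0.052 in DESeq2.

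The 5p arms of cluster b were nearer to the limit of detection. Over all 6 libraries miR-23b-5p had 3 counts, miR-27b-5p 21 and miR-24-1-5p 29, against 79, 139 and 514 for miR-23a-5p, miR-27a-5p and miR-24-2-5p. Of the 29 counts of miR-24-1-5p, 21 were in control 2, and of the 21 of miR-27b-5p, 16 were in control 2. For miR-27 the order of the clusters was therefore the reverse in the arms, with the b guide above the a guide and the a 5p arm above the b 5p arm in total. The counts of miR-3074-1-3p came to 1.

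Whether members of 1 precursor varied together was read from log2(CPM + 1) over the 6 libraries, in 10 pairs of the 5 guides. No pair passed after Benjamini-Hochberg adjustment, with 0.208 as the lowest adjusted p. The highest r was between the paralogues miR-23a-3p and miR-23b-3p (Pearson r = 0.886, exact permutation p = 0.021, adjusted p = 0.208; Spearman rho = 0.829, exact permutation p = 0.058). Over the 4 libraries left without control 3 and IS 2, those farthest from the median, it was 0.229. Whether these rows share reads that match both was not tested.

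For the miR-23 and miR-27 guides of 1 precursor, r lay below 0. For miR-23a-3p with miR-27a-3p the Pearson r was -0.194 (exact permutation p = 0.692) and Spearman's rho 0.029 (p = 1), and for miR-23b-3p with miR-27b-3p they were -0.428 (exact permutation p = 0.397) and -0.143 (p = 0.803). Without control 3 and IS 2 these r were -0.561 and -0.207. For miR-27a-3p with miR-27b-3p r was 0.687 (exact permutation p = 0.135; rho 0.543, p = 0.297) and 0.185 without control 3 and IS 2. For miR-27b-3p with miR-24-3p r was 0.774 (exact permutation p = 0.072; rho 0.771, p = 0.103) and 0.594 without IS 1 and IS 2.

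Ranked by r among the other 205 tested miRNAs, miR-23b-3p was 12th in likeness to miR-23a-3p, and miR-27a-3p, from the same precursor, was 141st. To miR-23b-3p, miR-27b-3p of the same precursor was 156th. The pairs with miR-24-3p, which may come from either precursor, ranked higher for the miR-27 guides: to miR-27b-3p it was 14th, to miR-27a-3p 27th, and miR-27b-3p was 7th in likeness to miR-24-3p. The miRNAs outside the clusters most like miR-23a-3p were miR-486a-5p (r = 0.979) and miR-486a-3p (0.978). Their counts were close to each other in every library (7182 and 7314 in control 1, 24601 and 24167 in IS 2), and whether both names hold the same reads was not tested. Those most like miR-23b-3p were miR-186-5p (0.952) and miR-22-3p (0.951). For miR-27b-3p they were miR-21a-5p (0.979) and miR-99a-5p (0.879), for miR-27a-3p miR-411-5p (0.874) and miR-100-5p (0.867), and for miR-24-3p miR-152-3p (0.905) and miR-99b-5p (0.859). These are descriptions over 6 libraries, and the median absolute r over all pairs of tested miRNAs was 0.411.

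The summed leukocyte, red cell and vessel wall markers moved over the libraries with some members. miR-142a-5p, the most abundant leukocyte marker, was 10095, 4953 and 20128 CPM in control 1 to 3 and 10757, 23909 and 6212 CPM in IS 1 to 3, highest in control 3 and IS 2 like miR-23a-3p and miR-23b-3p. That marker made up most of the leukocyte sum (10095 of 10735 CPM in control 1). miR-142a-3p was also highest in control 3 and IS 2 (733 and 1106 CPM), and miR-150-5p and miR-155-5p in IS 2 (1094 and 350 CPM). By contrast miR-223-3p was lowest in IS 2 (18.9 CPM) and miR-342-3p lowest in control 3 (89.6 CPM). The red cell miRNA miR-486a-5p was 26567, 36381 and 63137 CPM in control and 36105, 77527 and 44213 CPM in IS, with its highest values in control 3 and IS 2. The vessel wall markers (4 of 4 in the table, none at 0) summed to 2.72, 3.26 and 1.66% of all counts in the control libraries and 2.15, 0.955 and 3.54% in the IS libraries. Their sum was lowest in control 3 and IS 2, like miR-24-2-5p. So were miR-126a-3p and miR-143-3p, which make up most of it. The scarcer miR-126a-5p was lowest in IS 1 (26.8 CPM) and miR-145a-5p in IS 3 (15.9 CPM). The log2 fold changes of the markers were above 0 in 6 of 6 for leukocytes (median 0.30), 4 of 4 for red cells (0.37) and 2 of 4 for the vessel wall (0.040). For heart and skeletal muscle they were above 0 in 3 of the 4 tested of 7 markers (median 0.92), for epithelium in 4 of the 4 tested of 6 (0.56) and for liver in 2 of 3 (0.041). None of these markers passed in edgeR. Muscle markers summed to 0.0366 to 0.244% of the counts in control and 0.168 to 0.482% in IS, with miR-133b-3p and miR-208b-3p at 0 in 2 and 3 libraries. Epithelial markers summed to 0.0248 to 0.0659% and 0.0483 to 0.112%, with miR-141-3p at 0 in 2 libraries. The part of these markers, and of depth, in the values of the members was not tested. In bulk vesicle RNA, fewer vesicles of a cell type and less of a miRNA per vesicle cannot be told apart.

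**Figure D5:**
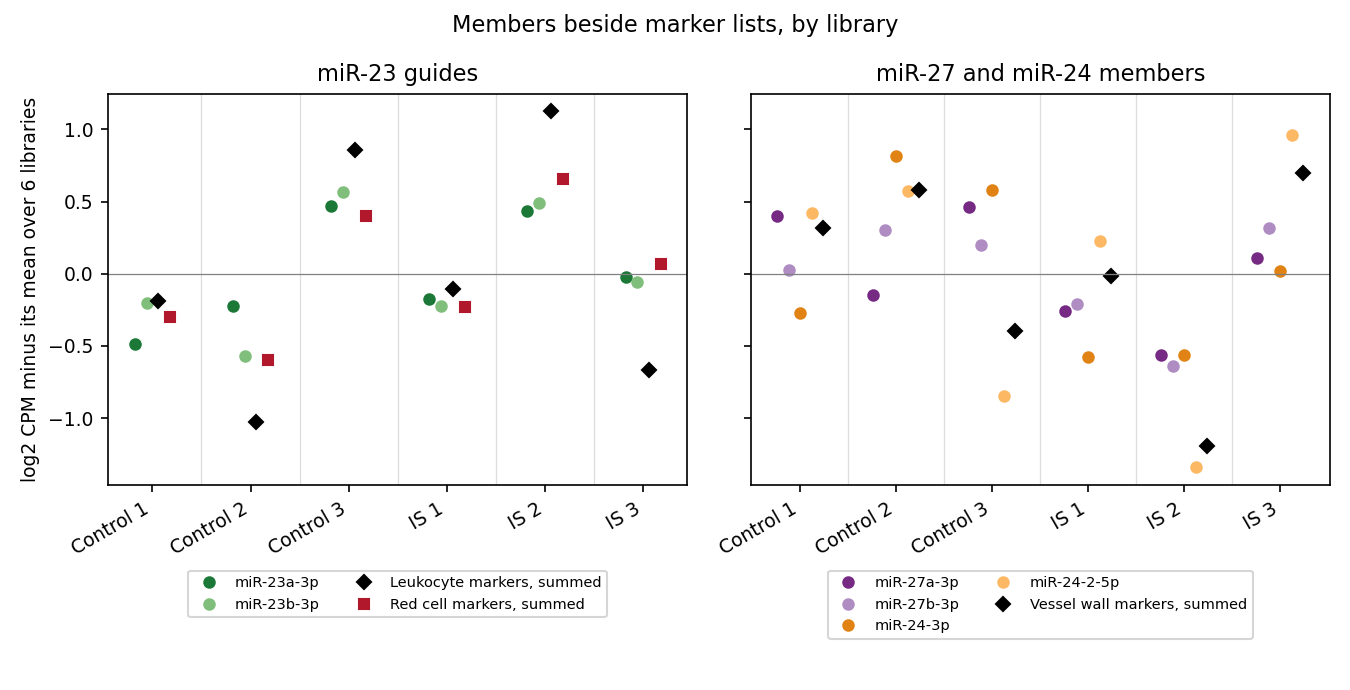
Log2 CPM of members and of the summed marker lists in each library, minus the mean over the 6 libraries (y axis), with members as circles, leukocyte and vessel wall markers as diamonds and red cell markers as squares. The miR-23 guides lie highest in control 3 and IS 2 with the summed leukocyte and red cell markers, and miR-24-2-5p lies lowest there with the summed vessel wall markers.

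Other miRNAs of the tissues in which these clusters are best known gave no call either. Of 11 vessel wall miRNAs, 10 were tested and 0 passed, with 5 log2 fold changes above 0, 5 below and a median of 0.016. The most abundant were miR-126a-3p, which supports vessel growth, at -0.34 (SE 0.62), and the smooth muscle miRNA miR-143-3p at -0.10 (SE 0.46). Of 10 miRNAs known from lymphocyte control, 10 were tested and 0 passed, with 5 above 0, 5 below and a median of 0.050. Among them miR-146a-5p, a brake on inflammatory signalling, had 0.29 (SE 0.58), and miR-92a-3p, of the miR-17 to miR-92 cluster, -0.40 (SE 0.59).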

How the data were processed

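Small RNA of vesicles isolated with an exoRNeasy Maxi kit was sequenced from NEBNext libraries, per the labels' protocols. The submitters' processing notes name CASAVA 1.8 and Bowtie and give no role for them. Not given in the sources used here are the build, the miRNA annotation, the use of strand and the treatment of reads matching several miRNAs. In 1 table the authors deposited a read count per miRNA and library, and a value headed TPM that equals the count over the library total times 1000000 (largest difference 4.8e-10), called CPM here, in which no length enters. The library names gave the groups and replicate numbers.

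Counts were tested with edgeR 4.0.16 (quasi-likelihood F test, TMM, filterByExpr with minimum count 10 and minimum total 15, no term but group, IS minus control, adjusted p under 0.05) in R 4.3.3, which kept 206 miRNAs with 99.7% of the counts. The SE was the log2 fold change over the square root of F. Ratios of members used counts plus 0.5, an exact sign-flip permutation test within libraries and an exact permutation test between groups. Correlations used log2(CPM + 1) and all orders of the 6 libraries. A floor of 3 counts was 6.89 to 23.9 CPM. Alternatives used DESeq2 1.42.0, limma 3.58.1 and other settings. Python 3.11.15, numpy 2.4.6, pandas 2.3.3, scipy 1.17.1 and matplotlib 3.10.9 were used. The test was checked on simulated data. Named were the 9 members, the other arms of their hairpins, the 2 most similar tested miRNAs of each guide, and up to 2 of the most abundant of each list. Further list members were named where they held 0 counts in a library, or to show the order of leukocyte and vessel wall markers over libraries. The members, lists, ratios and tests were chosen with earlier results of these data known.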

Additional observations from a re-analysis of the deposited data

How the results depend on the processing

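The number of miRNAs past the edgeR threshold, and of members among them, was 0 in all alternatives run, DESeq2 and limma included, and 3 miRNAs had an unadjusted p under 0.05. That number was 14 in DESeq2, 13 with no filter, 4 with the 10 CPM filter and 0 with the replicate block or without IS 3 with the scaling kept, and 2 to 4 otherwise. The log2 fold changes of miR-27a-3p, miR-27b-3p, miR-24-3p and miR-3074-5p kept their sign in all of them. The others did not with a library left out. With the filter and scaling refitted they ran from -0.21 to 0.44 for miR-23a-3p, -1.02 to 1.09 for miR-23a-5p, -0.35 to 0.43 for miR-23b-3p, -2.26 to 0.42 for miR-27a-5p and -0.83 to 0.34 for miR-24-2-5p. With both kept, miR-23a-3p was -0.046 without IS 2 and miR-23a-5p -0.59 without IS 3. Likewise miR-23b-3p was -0.10 without control 2 and -0.14 without IS 2, and miR-27a-5p was -0.31 without control 1 and -2.05 without IS 3. miR-24-2-5p was 0.28, 0.12 and 0.37 without control 1, control 2 and IS 2. miR-27a-5p was also -1.06 with the replicate block, -1.87 with limma on log2(TPM + 1) and -2.20 with 0.5 in place of 1, and the cause was not tested. miR-24-2-5p was 0.015 with RLE factors, 0.051 with library totals, 0.028 with no filter and 0.052 with DESeq2. Refitting without a library moved the median of all tested miRNAs to between -0.27 and 0.050.

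With a library left out, 0 of the 9 ratios could pass within libraries, since 5 libraries allow no p under 0.062. The mean log2 ratios then ran from 0.91 to 1.03 (miR-23a-3p over miR-23b-3p), -1.2 to -1.03 (miR-27a-3p over miR-27b-3p), -1.72 to -1.32 (miR-23b-3p over miR-27b-3p), -0.21 to 0.20 (miR-24-3p over miR-23a-3p), 4.42 to 5.20 (miR-23a-3p over miR-23a-5p), 3.47 to 4.68 (miR-27a-3p over miR-27a-5p) and 1.76 to 2.23 (miR-24-3p over miR-24-2-5p). The differences between groups that turned sign ran from -0.12 to 0.19 (miR-23a-3p over miR-23b-3p), -0.38 to 0.035 (miR-27a-3p over miR-27b-3p), -0.68 to 0.14 (miR-24-3p over miR-27a-3p), -0.94 to 1.04 (arms of miR-23a) and -0.81 to 2.21 (arms of miR-27a). No correlation passed with either pseudocount or with TMM library sizes, and with 2 libraries left out none was tested. That of miR-23a-3p with miR-24-3p was 0.067, and -0.358 with TMM library sizes. That of miR-23a-3p with miR-27b-3p was -0.333 (-0.774 with TMM library sizes, exact permutation p = 0.044, adjusted p = 0.222, and 0.335 without the 2 libraries farthest from the median), and that of miR-27a-3p with miR-24-3p 0.435 (-0.147).

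Whether the shared replicate numbers pair the libraries was not tested. Deviations from the group means had r of 0.314, -0.327 and -0.054 between the same-numbered libraries 1, 2 and 3. Across numbers, control 3 with IS 2 had 0.528, control 2 with IS 3 0.249, and the other 4 pairs -0.380 to 0.054. A replicate block gave 0 calls in edgeR, as without it, and 0 of 9 ratios between groups, where 3 pairs allow no p under 0.25. Leaving libraries out with the scaling kept, and leaving out control 3 and IS 2, were added after seeing the data. Depth limits miR-23a-5p and miR-27a-5p, which rest on 0 to 60 counts per library.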
